A study of Mus musculus with 18 samples.

Results

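The regions described are stretches of mouse chromosomes that lay in a Lamin B domain of cardiomyocytes (CM) but in no Lamin B domain of embryonic stem cells (ESC), and in no H3K9me2 domain of either cell type. Every 1 kb bin of chromosomes 1 to 19 was marked as in or out of a domain in each of 4 deposited domain lists, and unbroken stretches of at least 10 kb with this combination were kept. The stretches were thus chosen by the domain calls of these lists, which hold 5624 domains together. There were 153 such stretches with 11.8 Mb, and 1 more of 2.06 Mb on distal chromosome 3 (from chr3:154300001, mm9, to the end), which brings the total to 13.9 Mb. For comparison, 702 stretches of at least 10 kb were Lamin B in CM and not in ESC, whatever their H3K9me2. Counts and shares below include the distal chromosome 3 stretch unless it is said to be left out.

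Lamin B was immunoprecipitated from CM (2 libraries) and ESC (2 libraries), both wild type, and H3K9me2 from the same cell types (2 libraries each). The CM were grown from the ESC through embryoid bodies and collected on day 10 of differentiation, and these ESC were kept without serum or feeder cells. A further ESC line, CMV-creERT; Hdac3f/f, carries floxed alleles of the histone deacetylase gene Hdac3 and a tamoxifen-inducible Cre that is not named as specific to a cell type. Its Hdac3-deleted cells, treated with tamoxifen at 1 µg/ml over 24 h, gave 2 Lamin B libraries, and its untreated cells gave 2 for Lamin B and 2 for H3K9me2. The CM Lamin B list and the CM H3K9me2 list are each named by their 2 wild-type libraries. In ESC the Lamin B list carries the names of 6 libraries (2 Hdac3-deleted, 2 floxed, 2 wild type) and the H3K9me2 list those of 4 (2 floxed, 2 wild type), and whether reads of the Hdac3 line entered the ESC lists is unknown. No list carries a value per library, so replicate spread and depth are unknown, and the identity and purity of the CM could not be checked from domain positions.

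Lamin B is a protein of the nuclear lamina, the meshwork under the inner nuclear membrane. Sequence in contact with it forms lamina-associated domains, long blocks that are typically poor in active genes and are in large part shared between cell types. H3K9me2, dimethylation of lysine 9 of histone H3, is deposited mainly by the enzymes G9a and GLP and is typical of such peripheral chromatin. In differentiation some loci move to or from the lamina, and genes at the lamina are usually silent. The stretches described here are places where a lamina domain was called in CM without a call of that mark.

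Such stretches were a small part of the lamina of CM. Of the 1 kb bins of chromosomes 1 to 19, 4.66% were Lamin B in CM only and 0.565% lay in the stretches described, while 1.21% were Lamin B in ESC only. H3K9me2 of both cell types was absent from 12.6% of the bins that were Lamin B in CM only, and from 2.94% of all CM Lamin B bins, against 44.8% of all bins. It was absent from 1.82% of the bins with Lamin B in both cell types and from 27.8% of the bins that were Lamin B in ESC only. All bins ran from the start of each chromosome to the last domain end of any list. Bins where no read can be placed were not removed, and any such bins count as without H3K9me2 in the 44.8%. The same lists chose the stretches, so these shares and all values below are descriptions without a test. The bins of CM-only Lamin B split into 68.9 Mb with H3K9me2 in both cell types, 27.7 Mb with H3K9me2 in CM only, 3.34 Mb with H3K9me2 in ESC only and 14.4 Mb with none, of which 0.530 Mb lay in 137 stretches under 10 kb.

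The stretches fell into 3 kinds by their place in the CM Lamin B domain that held them. In 26 (16.9%, Wilson 95% interval 11.8 to 23.6) the stretch was a whole CM Lamin B domain, from end to end, and these came to 4.17 Mb. In 85 (55.2%, 47.3 to 62.8) the stretch was an end of a CM Lamin B domain, with 5.76 Mb, or 3.70 Mb in 84 stretches without distal chromosome 3. In 43 (27.9%, 21.4 to 35.5) it lay inside a CM Lamin B domain, with 3.94 Mb. Without distal chromosome 3 the shares were 17.0%, 54.9% and 28.1% for whole domains, ends and inner stretches. These intervals treat stretches as independent and cover counting error only, although 18 of the 132 domains involved held more than 1 stretch.

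Whole domains were the longest kind and ends the shortest. The 26 whole domains ran from 33 to 462 kb, with a median of 148.5 kb. The 85 ends had a median of 19 kb, and the 43 inner stretches a median of 40 kb. Over all stretches the median was 36 kb, with quartiles of 16 and 91.8 kb. This median depends on the rule: it was 10 kb at a minimum length of 1 kb, 80 kb at one of 22 kb, 117.5 kb at one of 50 kb, and 64 kb with H3K9me2 domains widened by 20 kb at each end. The 37 stretches of at least 100 kb held 9.90 Mb, or 71.4% of the sequence (66.4% without distal chromosome 3). At the lower limit, 17 stretches were exactly 10 kb long and 3 were 11 kb, while 6 were 9 kb long and 10 were 8 kb and so were left out. Domain edges lay on grids of 11 kb for CM Lamin B, 9 kb for ESC Lamin B, 20 kb for CM H3K9me2 and 10 kb for ESC H3K9me2. The 52 stretches under 20 kb, 44 of them ends, were shorter than 1 bin of the CM H3K9me2 list and held 0.695 Mb. Another 8 of them were inner stretches, whereas no whole domain was under 33 kb. The order of the 3 medians thus depends in part on the grids and the rule.

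**Figure D1:**
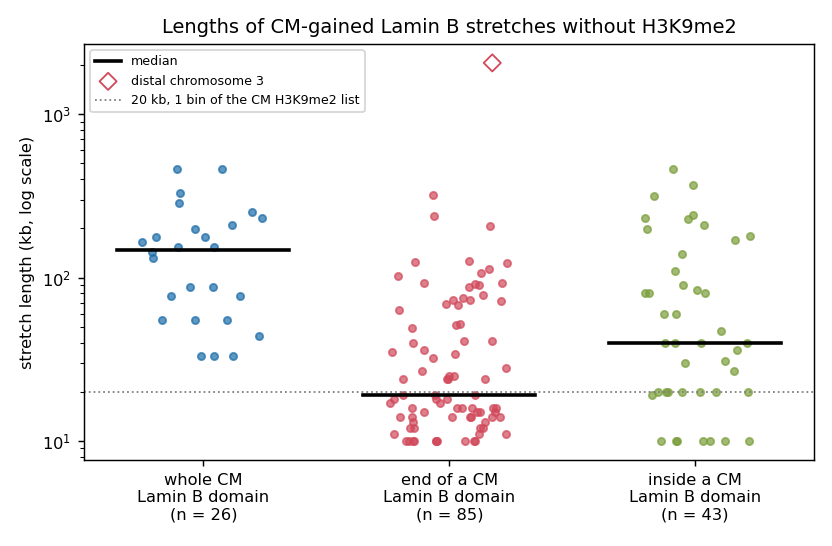
Length of each stretch (kb, log scale) by its place in its CM Lamin B domain, 1 point per stretch. Black bars are medians (148.5 kb for whole domains, 19 kb for ends, 40 kb for inner stretches), the dotted line marks 20 kb and the open diamond is the 2059 kb stretch on distal chromosome 3.

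Neither end of the whole domains touched a domain of the other 3 lists. The longest pair were chr12:41822001-42284000 and chr15:35343001-35805000 (mm9), both 462 kb. The chromosome 12 domain lay 396 kb from the nearest CM H3K9me2 domain and 302 kb from the nearest ESC H3K9me2 domain, with ESC Lamin B 394 kb away. The chromosome 15 domain stood farther off, at 1403 kb from CM H3K9me2, 743 kb from ESC H3K9me2 and 1440 kb from ESC Lamin B. It lay in a gap of 5292 kb between ESC Lamin B domains, so Lamin B was called there in CM in the midst of sequence that had no such domain in ESC.

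Chromosome 18 held the 2 whole domains farthest from H3K9me2. They were chr18:36971001-37301000 (330 kb) and chr18:37345001-37598000 (253 kb), with 44 kb between them. The nearest CM H3K9me2 domain was 2359 kb from the 330 kb domain and 2062 kb from the 253 kb domain. The nearest ESC H3K9me2 domain was 2009 kb and 1712 kb away, and ESC Lamin B 2731 kb and 2434 kb away. Both lay within a single gap of 8361 kb between ESC Lamin B domains, and no other stretch lay more than 1000 kb from H3K9me2 of both cell types. Next by that distance came the chromosome 15 domain at 743 kb, as given above. Another whole domain on the same chromosome, chr18:25333001-25619000 (286 kb), was closer to marked sequence, at 301 kb from CM H3K9me2 and 123 kb from ESC H3K9me2.

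Most whole domains were nearer to the mark than these. The distance to the nearest H3K9me2 domain of either cell type ran from 4 to 2009 kb over the 26, with a median of 110.5 kb, and was over 100 kb in 14 and over 500 kb in 4. In 3 of them it was at most 20 kb. ESC Lamin B lay farther away, with a median of 371 kb, and within 11 kb of 1 domain. At 100 kb outside their ends, 17.3% of the 52 ends had a CM Lamin B domain, 7.69% an ESC Lamin B domain, 23.1% a CM H3K9me2 domain and 7.69% an ESC H3K9me2 domain. At 500 kb these shares were 34.6%, 28.8%, 42.3% and 36.5%.

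**Figure D2:**
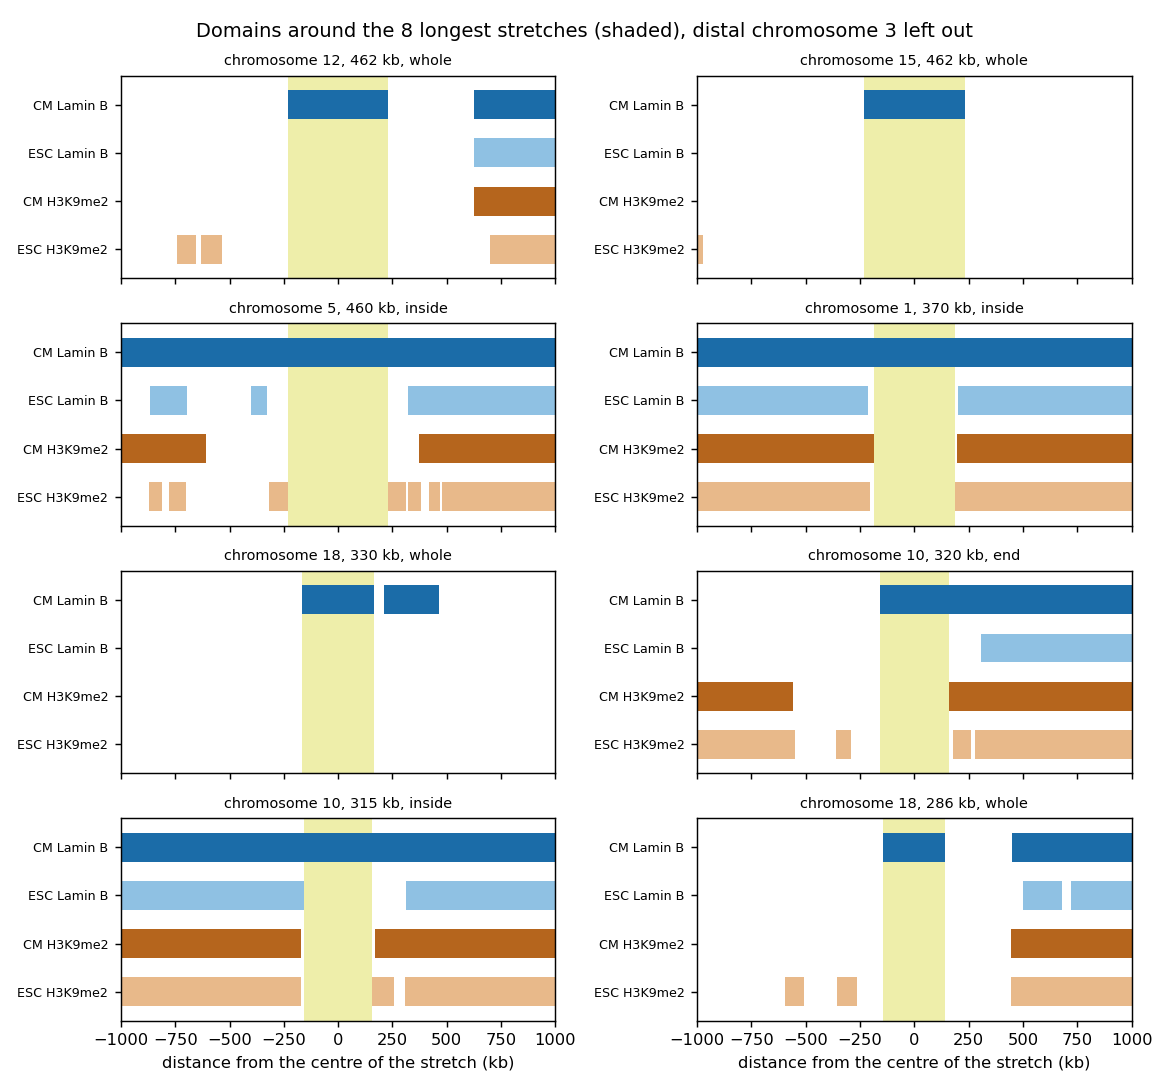
Domains of the 4 lists within 1000 kb of the centres of the 8 longest stretches, distal chromosome 3 left out. Each panel gives CM Lamin B, ESC Lamin B, CM H3K9me2 and ESC H3K9me2 as bars from top to bottom against the distance from the centre (kb), the stretch is shaded, and whole, end and inside name its place in the CM Lamin B domain. The windows of the chromosome 15 domain and the 330 kb domain of chromosome 18 hold no ESC Lamin B and no CM H3K9me2 domain, those of the other whole domains hold all 4 lists at a distance, and the inner stretches on chromosomes 1, 5 and 10 sit in gaps of the other lists.

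The whole domains had low scores in the CM Lamin B list. The score is the authors' own value per domain, it grows with length, and no scale is stated for it. Ranked among all 933 CM Lamin B domains, the 26 lay between percentiles 0.214 and 54.4, with a median of 12.2, and 25 of the 26 were below the middle of the list. The exception was the chromosome 12 domain, with a score of 17.8, while the chromosome 15 domain of equal length scored 9.21. The 330 kb domain of chromosome 18 scored 9.86 and the 253 kb domain 7.81.

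New CM Lamin B domains with H3K9me2 also had low scores. Of the 826 CM Lamin B domains on chromosomes 1 to 19, 205 (24.8%) had no ESC Lamin B, and 40 (4.84%) had no H3K9me2 of either cell type. The 26 whole domains, 3.15% of all, met both conditions, and they were 12.7% (Wilson 95% interval 8.80 to 17.9) of the 205. The other 179 new domains had some H3K9me2, a median length of 176 kb and a median score percentile of 23.4. Among domains of 200 to 500 kb, the median score per 100 kb was 2.99 for the 7 without H3K9me2 and 2.64 for the 57 new domains with it, against 3.78 for 168 domains with ESC Lamin B. Among those of 100 to 200 kb it was 2.79 for 8, 3.14 for 82 and 3.52 for 91 domains. In both of these length classes the new domains with and without H3K9me2 were below those that had ESC Lamin B as well. Under 100 kb the order per 100 kb was the other way. It was 6.58 for 11 domains without H3K9me2 and 5.94 for 24 new domains with it, against 4.70 for 11 domains with ESC Lamin B. Division by a short length raises this value, and the median scores themselves were 3.62, 4.24 and 4.21 in the same sequence of kinds. The domains without H3K9me2 thus had the lowest median score there.

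H3K9me2 covered most of those other new domains. CM H3K9me2 covered 121 of the 179 from end to end and was absent from 17. ESC H3K9me2 covered 62 of the 179 fully and was absent from 19. Among the 621 CM Lamin B domains that had ESC Lamin B too, 14 (2.25%) had no H3K9me2 of either cell type, and these had a median score percentile of 24.3.

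The inner stretches mostly lay in long CM Lamin B domains, in gaps between domains of the other lists. In 41 of the 43 the host held domains of all 3 other lists, whereas in the other 2 it had no ESC Lamin B. The hosts, 32 distinct domains, ran from 165 to 19217 kb and were under 500 kb for 5 stretches. Counted once per stretch, they had a median length of 2453 kb and a median score percentile of 81.5, the highest of the 3 kinds. At both edges 33 of the 43 touched H3K9me2, 9 did so at 1 edge and 1 at none. ESC Lamin B touched 11 of them at 1 edge and 2 at both edges. By the rule, each edge of an inner stretch must touch at least 1 of the other lists. The gaps that held them measured a median of 351 kb between ESC Lamin B domains (40 stretches with a domain on both sides), 180 kb between CM H3K9me2 domains and 120 kb between ESC H3K9me2 domains.

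The longest inner stretches show this arrangement. chr5:8720001-9180000 (460 kb) lay in a CM Lamin B domain of 5203 kb and was bounded at both edges by ESC H3K9me2, with CM H3K9me2 140 kb away. chr1:66720001-67090000 (370 kb) lay in a CM domain of 5698 kb, of which ESC Lamin B covered 92.6% and CM H3K9me2 93.3%. There the ESC Lamin B gap was 414 kb, the CM H3K9me2 gap 380 kb and the ESC H3K9me2 gap 390 kb, and the edges of these gaps lay within 30 kb of each other on either side. chr10:53055001-53370000 (315 kb) had gaps of 468, 340 and 330 kb in the same order of lists, and ESC Lamin B began again 153 kb beyond its end. chr4:15860001-16100000 (240 kb) had gaps of 261, 240 and 320 kb.

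Some long CM Lamin B domains held several of these gaps. The domain chr10:45100001-57167000 held 3 stretches with 865 kb, among them chr10:45100001-45420000 (320 kb), its first end, and chr10:51930001-52160000 (230 kb), which touched ESC Lamin B at 1 edge. The domain chr5:5764001-10967000 held 3 with 680 kb, and chr4:12111001-31328000 held 3 with 450 kb. Over the genome, 14 of the 136 pairs of neighbouring stretches were within 100 kb of each other, and the median spacing was 4430 kb. A further stretch among those that touched ESC Lamin B at 1 edge, chr10:10863001-11090000 (227 kb), also touched ESC H3K9me2 at 1 edge and lay 3 kb from CM H3K9me2. The 2 stretches with ESC Lamin B at both edges were short, chr3:66771001-66807000 (36 kb) and chr4:4050001-4077000 (27 kb).

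The ends were mostly a short run of CM Lamin B beyond the last marked bin. Of the 85, 61 began where H3K9me2 of either cell type stopped, and the other 24 began where ESC Lamin B stopped. Their host domains, 77 distinct ones, had a median of 308 kb when counted once per stretch. Apart from distal chromosome 3, the longest was the 320 kb end on chromosome 10, followed by chr1:53100001-53339000 (239 kb). The latter made up 77.6% of a CM domain of 308 kb, of which ESC H3K9me2 covered 16.2% and ESC Lamin B none.

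Counted over both edges of every stretch, 137 of 308 edges (44.5%) were the end of a CM Lamin B domain, where no list began. At 61 edges (19.8%) H3K9me2 of CM only began, at 48 (15.6%) H3K9me2 of ESC only, and at 23 (7.47%) H3K9me2 of both, while CM-only Lamin B went on. ESC Lamin B began at the other edges, at 35 of them (11.4%) without H3K9me2. An edge counts for both only where the 2 H3K9me2 lists begin at the same bin, and their grids of 20 kb and 10 kb limit how often that can happen, so no order is read from these counts.

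Contact with H3K9me2 and with ESC Lamin B divided the stretches further. An H3K9me2 domain of either cell type touched 103 of the stretches (66.9% of all, Wilson 95% interval 59.1 to 73.8), and 117 (76.0%, 68.6 to 82.0) touched no ESC Lamin B domain. Without distal chromosome 3 these shares were 66.7% and 75.8%. Of CM-only Lamin B stretches whatever their H3K9me2, 29.2% touched no ESC Lamin B. This share was 67.3% with CM-only H3K9me2, 92.9% with ESC-only H3K9me2 and 47.3% with H3K9me2 in both. H3K9me2 touched 91.3% of CM-only Lamin B stretches whatever their H3K9me2, and 66.3% of ESC-only Lamin B stretches without it. The same lists cut out each kind and so shape its edges, and these differences were not tested. For 52 of the stretches described, with 5.26 Mb, the stretch was all of the sequence gained by CM at that place. The other 102 were parts of 91 longer gained stretches with 21.99 Mb, of which 20.7% had H3K9me2 in both cell types, 31.1% in CM only and 8.91% in ESC only. With distal chromosome 3 left out, the shares of H3K9me2 were 27.1%, 21.8% and 11.7%.

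**Figure D3:**
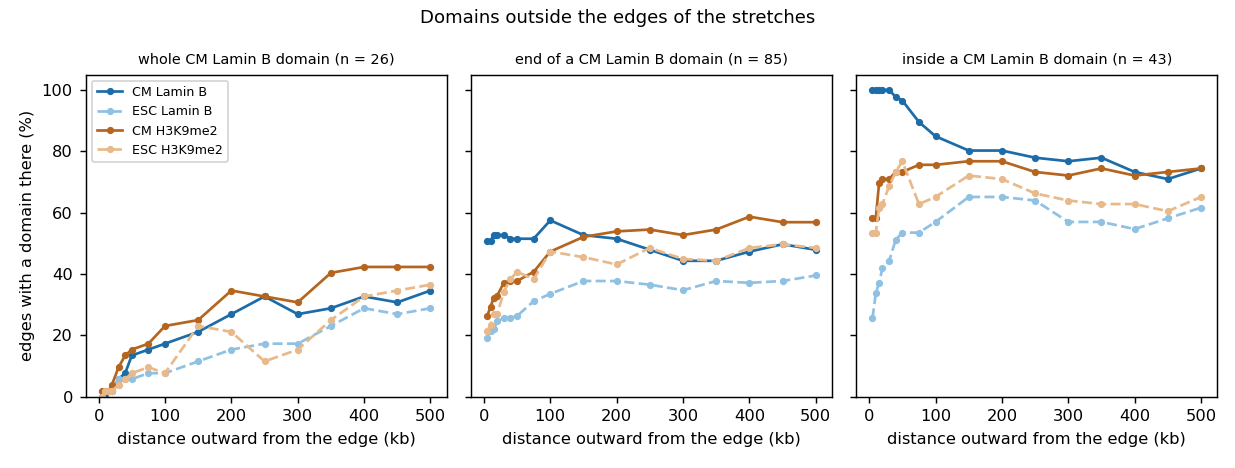
Share of edges with a domain of each list (%) against the distance outward from the edge (kb), for whole domains, ends and inner stretches. CM lists are solid and ESC lists dashed. At 100 kb from whole domains 23.1% of edges had CM H3K9me2 and 7.69% ESC H3K9me2, against 75.6% and 65.1% from inner stretches. Inner stretches meet another list at each edge by the rule, so part of this contrast is set in advance.

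The share of whole domains, 16.9% here, differed between kinds of gained stretch. Of 361 stretches of CM-only Lamin B with CM-only H3K9me2, 9 (2.49%) were whole CM Lamin B domains and 211 (58.4%) lay inside one. Of 537 with H3K9me2 in both cell types, 54 (10.1%) were whole and 240 (44.7%) inside. Of 56 with H3K9me2 in ESC only, 2 (3.57%) were whole. When gained stretches were not divided by H3K9me2, 205 of 702 (29.2%) were whole domains, a higher share than here. Division by H3K9me2 can only cut whole domains into parts, so the undivided set cannot hold fewer of them. The opposite case, Lamin B in ESC only and no H3K9me2, had 101 stretches with 7.84 Mb, of which 2 (1.98%) were whole ESC Lamin B domains and 53 (52.5%) lay inside one. Median lengths were 36 kb for the stretches without H3K9me2, 38 kb with CM-only H3K9me2, 89 kb with H3K9me2 in both and 40 kb for the ESC-only stretches. The lists differ in bin width and each kind was cut out by the same lists, so these differences were not tested.

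**Figure D4:**
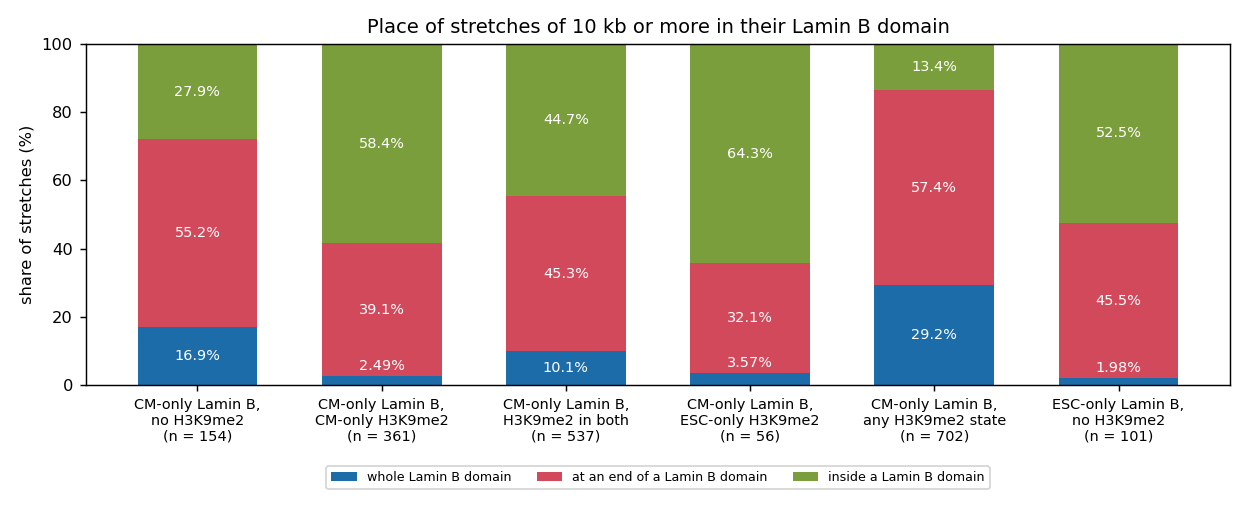
Share of stretches of at least 10 kb (%) that were a whole Lamin B domain, an end of one or inside one, for 6 kinds of stretch. The domain is that of CM for CM-only Lamin B and that of ESC for ESC-only Lamin B. Whole domains were 16.9% of the stretches without H3K9me2, 2.49% with CM-only H3K9me2, 10.1% with H3K9me2 in both, 3.57% with ESC-only H3K9me2, 29.2% in any H3K9me2 state and 1.98% for ESC-only Lamin B.

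The longest stretch of all stood apart. chr3:157540001-159599000 (2059 kb) was the distal part of a CM Lamin B domain of 5236 kb, with no domain of any list beyond it. The nearest ESC domains lay 3703 kb away for Lamin B and 3310 kb away for H3K9me2, whereas CM H3K9me2 covered 60.7% of the host domain and adjoined the stretch. The score of the host was 521, at percentile 96.6. Whether the copy number of distal chromosome 3 differs between the libraries was not tested.

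The stretches lay on 18 of the 19 autosomes. Chromosome 3 held 15 stretches with 3.34 Mb, and 14 with 1.28 Mb without its distal end, when chromosome 1 (15 stretches, 1.45 Mb) and chromosome 10 (13 stretches, 1.41 Mb) held more. Chromosome 11 had none, and its CM-only Lamin B came to 0.736 Mb. Among chromosomes with any, chromosome 8 had the least, 4 stretches with 0.0950 Mb. As a share of the CM-only Lamin B of a chromosome, the stretches ranged from 0% on chromosome 11 to 22.4% on chromosome 10, with a median of 9.21% over the 19, and the next lowest was 2.34% on chromosome 8. Chromosome 18 had 1.19 Mb in 9 stretches, 18.6% of its CM-only Lamin B, and chromosome 16 had 0.294 Mb, 3.83% of 7.68 Mb. Chromosomes 4 and 7 had 4 whole domains each, the most of any, and those of chromosome 7 were 33 to 55 kb long.

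**Figure D5:**
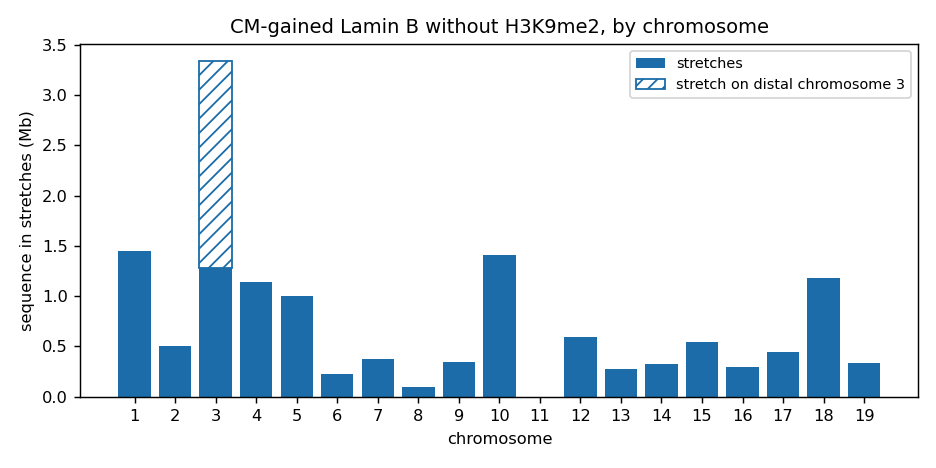
Sequence in the stretches (Mb) on each of chromosomes 1 to 19. The hatched part is the 2.06 Mb stretch on distal chromosome 3, without which chromosome 1 with 1.45 Mb has the most, and chromosome 11 has none.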

How the data were processed

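ChIP-seq reads were processed with STAR, Picard and deepTools (versions not stated) on build mm9, per the submitters' processing notes. The authors deposited 4 domain lists, whose track headers name g 10, an automatic bin and an fdr of 5. The sources used here do not give the domain caller or how libraries were pooled. Each deposited list holds starts, ends and the authors' score per domain, which was used to rank and filter domains within the CM Lamin B list. The 1 kb grid was made in Python 3.11.15 (pandas 2.3.3, numpy 2.4.6) and gave 154 stretches; distal chromosome 3 begins at 154.3 Mb. Coordinates are 1-based. Distances run from edge to edge, and a touch means adjacent bins. Wilson 95% intervals came from scipy 1.17.1 and figures from matplotlib 3.10.9. The code was tested on simulated lists. Regions named are the longest overall and of each kind, those farthest from H3K9me2, and the chromosomes with most and least. The stretches and comparisons were chosen with earlier results of these data known. No genome or annotation of mm9 was used here, so no gene or sequence is given. Alternatives covered the minimum length, the score, H3K9me2 edges and gaps, the grid and chromosome X.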

Additional observations from a re-analysis of the deposited data

Results flagged for a closer look

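Chromosome X lay outside the rule and held 49 stretches of the same kind, with 2.91 Mb of its 14.3 Mb of CM-only Lamin B. They were noted because they are a signal in sequence that the comparisons did not use. Their median length was 43 kb, the longest was chrX:72620001-72897000 (277 kb), 14 were whole CM Lamin B domains and 31 touched H3K9me2. Chromosome Y, also outside the rule, held stretches of the same kind of 119, 30 and 26 kb.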

How the results depend on the processing

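All alternatives were planned. Without distal chromosome 3 there were 153 stretches with 11.8 Mb, and both contact shares stayed near the values reported. With chromosome X added there were more, 203 stretches with 16.8 Mb, and 40 of them were whole domains. The share touching H3K9me2 was then 66.0%, and the share touching no ESC Lamin B was 77.8%. The minimum length moved the number by construction, to 291 at 1 kb, 95 at 22 kb and 66 at 50 kb, while the sequence stayed between 12.1 and 14.4 Mb. The share touching H3K9me2 was 57.9% at 22 kb, 57.6% at 50 kb, 57.9% after merging H3K9me2 across gaps under 100 kb and 74.8% on a common 20 kb grid, on which 60.8% touched no ESC Lamin B. With H3K9me2 widened by 20 kb at each end, 91 stretches with 11.4 Mb remained, 24 of them whole domains. With CM Lamin B domains at or above the median score of 14.2, there were 82 stretches with 8.17 Mb, 82.9% touched H3K9me2, and 1 whole domain was left of 26, since the others score below that median. No paired analysis was possible because the lists hold no columns for single libraries, and none could be dropped for the same reason. Depth is unknown, so a missing H3K9me2 or ESC Lamin B domain may be a weak signal that was not called.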
